A study of Mus musculus with 18 samples.

Results

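Annotated mRNA isoforms with minimal 3′ untranslated regions (3′ UTRs) were chosen from tables of mapped transcript ends in mouse myotubes: every nuclear row that the authors class as an annotated transcript and whose 3′ UTR sequence holds 1 to 80 nt. This rule was met by 396 of 7123 isoforms (5.56%) in the polysome table, from 243 loci, and by 352 of 6636 (5.30%) in the decay table, from 256 loci. With 172 isoforms present in both tables with equal ends (43.4% of the polysome members and 48.9% of the decay members), 576 distinct isoforms were found. They were set against annotated nuclear isoforms with 3′ UTRs of 81 to 300 nt, 1210 in the polysome table and 1231 in the decay table, called longer isoforms from here on. Mapped ends of annotated rows lay up to 100 nt from the annotated end. The 3′ end was over 20 nt away in 43 of 396 polysome members and 39 of 352 decay members. The same held for 106 of 1210 and 126 of 1231 longer isoforms. A minimal 3′ UTR here is therefore set by the mapped end, and the annotated 3′ UTR may differ in length.

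The study mapped the 5′ and 3′ end of the same mRNA molecule with TIF-seq2 in primary myoblasts of wild-type (WT) female mice, taken from the gastrocnemius muscle and fused into myotubes within 24 h of 1 µM SCH772984, an ERK inhibitor; all groups share this treatment. For polysome profiling, cells received 100 µg/ml cycloheximide for 5 min, and lysates were separated on 10 to 50% sucrose gradients into polysome-free, light (2 to 5 ribosomes) and heavy (6 or more ribosomes) fractions, with 2 libraries for each. For mRNA decay, 7.5 µg/ml actinomycin D blocked transcription and RNA was collected at 0, 3, 6 and 12 h, with 3 libraries for each time. The age of the mice is not given in the labels used here, and myotubes made from cultured myoblasts are a model of early fusion rather than of adult fibres.

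Each deposited row is an isoform with 1 coverage count pooled over the libraries of its assay and 1 value: TE (translation efficiency, from the polysome fractions) or half-life. Since 0 columns belong to 1 mouse or library, the values below have no error across mice. Comparisons are descriptions of isoforms, with 95% Wilson intervals for shares and 95% order-statistic intervals for medians. These cover counting over isoforms only, and isoforms of the same locus are not independent. Of the members, 259 in the polysome table and 303 in the decay table had a coverage of at least 30 and are used below; these hold 98.7% and 99.7% of the members' summed coverage. The scale of TE is not stated, and half-lives carry no unit in the tables, although the labels give times in hours. Gene names were assigned by matching the first 20 nt of the leader to RefSeq promoter windows, which named 234 of 396 polysome members and 192 of 352 decay members, so an unnamed isoform is given by its position in build GRCm39. Of 12 myotube markers, 9 were found by name in each table, among them Myog, Ckm and Acta1, with summed coverages of 117202 and 194223; none of the markers of fibroblasts, endothelial cells, leukocytes or adipocytes was found; as only 9 of those are in the promoter table, this says little of their absence.

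The 3′ UTR lies between the stop codon and the poly(A) tail. Cleavage and polyadenylation are directed by a hexamer, usually AAUAAA or its common variant AUUAAA, that the CPSF complex reads a short way upstream of the cleavage site, so a very short 3′ UTR must place this signal close to the stop codon. Leaders that begin with a terminal oligopyrimidine (TOP) motif mark mRNAs of the translation machinery, which LARP1 and mTOR signalling regulate together.

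The windows that follow show how little room is left. They are the last part of the 3′ UTR, 5′ to 3′ on the transcript strand, with the polyadenylation hexamer in capitals. All but Cdc34 belong to the members with the hexamer closest to the stop codon or with the highest coverage. Cdc34 was chosen for the longest half-life among members with a coverage of at least 100. Rpl13a, the isoforms at chr8:85415912-85426415 and chr17:24939084-24940899, and the window of Rpl10a begin at or next to the stop codon.
Rpl13a (chr7:44775347-44778160, minus strand): acccAATAAAgactgtttgcctc
Unnamed (chr8:85415912-85426415, plus strand): gacAATAAAgagatgtaacctg
Unnamed (chr17:24939084-24940899, plus strand): gaaaAATAAAagaattaagtctgctgat
Rpl10a (chr17:28547557-28550005, plus strand): atgctccAATAAAcctcactgctgccactc
Rplp2 (chr7:141027564-141031262, plus strand): cctgcaAATAAAgtctttttatgtatcttg
Eif3k (chr7:28670798-28681223, minus strand): gtgtgcgttAATAAAgatttgttcactccg
Cdc34 (chr10:79518076-79523929, plus strand): tccctgaAATAAActtacaaattttacctc
Rpsa (chr9:119956854-119960625, plus strand): atggaaggaaAATAAAgttgctaaaagctg
Eno3 (chr11:70548030-70553336, plus strand): ccttctcccagaAATAAAcactgccaaacc

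Most of these short 3′ UTRs held a hexamer, but a smaller share than of longer ones. Counted per isoform, the intervals do not overlap. AAUAAA or AUUAAA was present in 206 of 259 polysome members (79.5%, 74.2 to 84.0) and in 240 of 303 decay members (79.2%, 74.3 to 83.4), against 86.7% (84.1 to 88.9) and 85.8% (83.6 to 87.8) of the longer isoforms. With each distinct 3′ end counted once, the polysome intervals overlap, at 78.9% (72.7 to 84.0) against 86.1% (83.2 to 88.7). In the decay table the shares were then 78.2% (72.6 to 82.9) against 85.6% (83.0 to 87.8). Most of the gap in the polysome table, and all of it in the decay table, lay in the very shortest. A 3′ UTR of 1 to 20 nt has little room for a hexamer that starts 15 to 30 nt from the 3′ end. None of the 18 polysome and 27 decay members of 1 to 20 nt held either hexamer, and without them 85.5% and 87.0% of the members did. At 21 to 40 nt the share was 92.6% (82.4 to 97.1) and 94.4% (86.6 to 97.8), and most of these signals were the canonical hexamer: AAUAAA itself was found in 87.0% and 86.1% of that class. At 61 to 80 nt the share with either hexamer was 78.6% (70.1 to 85.2) and 81.2% (73.2 to 87.2), with AAUAAA in 67.0% and 66.7% and only a rarer variant in 18.8% and 17.1%. AUUAAA without AAUAAA was less frequent in members, at 8.88% (5.99 to 12.97) and 10.9% (7.86 to 14.9), than in longer isoforms, at 14.3% (12.05 to 16.99) and 15.1% (13.01 to 17.4), though the intervals overlap. One of 10 further single-base variants of AAUAAA was the only candidate in 29 and 33 members, and none of the 12 hexamers was present in 24 (9.27%) and 30 (9.90%), against 3.23% and 3.64% of the longer isoforms.

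The hexamer kept its distance from the 3′ end, and the stop codon came closer. Counted from the first base of the hexamer, the 3′ end lay at a median of 20 nt in the polysome members (quartiles 19 to 23.75 nt) and 21 nt in the decay members (19 to 24 nt), and at 21 nt in the longer isoforms of both tables. Between 15 and 30 nt were found in 93.7% and 91.7% of members and in 91.5% and 91.4% of longer isoforms. The gap between stop codon and hexamer was then what remained: a median of 34 nt (32 to 39) and 33 nt (27 to 35) in members, against over 150 nt in the longer isoforms of both tables, an order that the length rule itself fixes. At 21 to 40 nt the median gap was 13 nt in both tables. In 50 of 206 polysome members and 68 of 240 decay members fewer than 20 nt separated them, and in 13 and 15 members fewer than 10 nt. The same was seen in 1 longer isoform of each table. The smallest gap was 3 nt, in the chromosome 8 isoform with 22 nt of 3′ UTR, followed by 4 nt in Rpl13a (a large ribosomal subunit protein, 23 nt) and in the unnamed isoform at chr17:24939084-24940899 (28 nt). Rpl10a, another protein of the large subunit, had 8 nt.

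**Figure D1:**
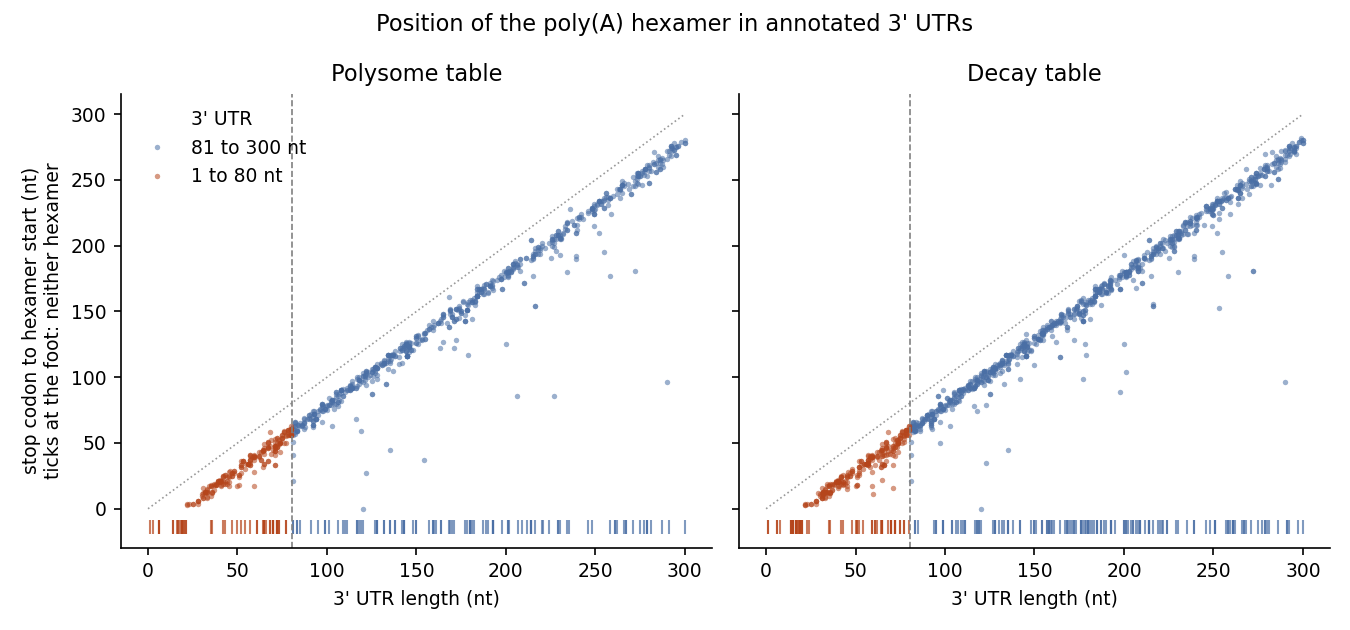
Distance from the stop codon to the first base of the last AAUAAA or AUUAAA (y axis, nt) against 3′ UTR length (x axis, nt) for isoforms with coverage of at least 30; members are orange and longer isoforms blue. The dotted line marks the 3′ end, ticks at the foot mark isoforms with neither hexamer, and the dashed line stands between 80 and 81 nt. The points run parallel to the dotted line at a median of 20 or 21 nt, and members of 1 to 20 nt appear only as ticks.

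Several of the shortest 3′ UTRs began with letters that would finish a hexamer started in the stop codon. A stop codon that ends in A, followed by AUAAA or UUAAA, spells AAUAAA or AUUAAA, and UAA followed by UAAA spells AAUAAA. UAA followed by a single A does so too where the codon before it ends in AA, and gives AUUAAA where that codon ends in AU. The stop codons and the bases before them are not in the tables and no GRCm39 genome was used here, so whether they do was not tested. One of these 3 longer starts occurred in 9 polysome members of 7 loci and in 12 decay members of 9 loci, and in 7 and 9 of these the 3′ UTR itself held neither hexamer. It occurred in 0 of 774 and 0 of 1043 longer isoforms. An A after the stop codon was found in 12 of 18 polysome members of 1 to 20 nt (66.7%, 43.7 to 83.7) and 17 of 27 decay members (62.96%, 44.2 to 78.5), against 24.2% and 28.7% of longer isoforms. At 21 to 40 nt the share was 27.8% and 29.2%. At 41 to 60 nt it was 41.3% (30.9 to 52.6) and 40.2% (30.6 to 50.7), although 90.7% and 88.5% of that class held AAUAAA or AUUAAA. A higher share was thus not limited to the class without either hexamer. The 3 longer starts are shown in capitals here, with the whole 3′ UTR, for the 8 genes whose 3′ UTR holds neither hexamer; Bola1 and an unnamed isoform at chr7:99128097-99132858 also start with UAAA and hold a hexamer further on.
Rps10 (chr17:27849397-27854214, minus strand): ATAAActttaaagaaaaac
Rps12 (chr10:23661095-23663098, minus strand): ATAAAttttggctg
Ubxn11 (chr4:133829914-133854085, plus strand): ATAAAgtgccgcccctg
Arpp19 (chr9:74944975-74964104, plus strand): TTAAAgagctgaactgc
Fkbpl (chr17:34863825-34865298, plus strand): TTAAAggagacaggaacccgc
Rabepk (chr2:34669230-34689803, minus strand): TAAAgcccacatttgtatt
Mrps15 (chr4:125940762-125949327, plus strand): TAAAgtctgttcccgtg
Ccdc107 (chr4:43493367-43495920, plus strand): TAAAaagagtcccctcgt
These 3′ UTRs are 14 to 21 nt long, so a hexamer joined to the stop codon would start 15 to 22 nt from the 3′ end, a distance that their length fixes; in the unnamed chromosome 7 isoform and in Bola1 it would start 33 and 64 nt from the end. Rps10 and Rps12 encode small ribosomal subunit proteins and Mrps15 one of the mitochondrial ribosome; Arpp19 encodes a phosphoprotein that inhibits the phosphatase PP2A in mitosis. Rps10 was abundant, with a coverage of 4210 and a TE of 0.00142 in the polysome table and a coverage of 10509 and a half-life of 13.4 in the decay table. Arpp19 had a coverage of 207 with a TE of 0.00188 in the polysome table.

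Other members held no hexamer in their 3′ UTR. The shortest was 1 nt long, at chr8:111573670-111608854 (plus strand), with a coverage of 442 and a TE of 0.00398, among the highest of all members, and a coverage of 408 with a half-life of 10.4. Stk16, a serine/threonine kinase gene, also had 1 nt in the decay table, with a coverage of 45 and a half-life of 14.8. Tnnt2, which encodes cardiac troponin T and is also expressed in developing skeletal muscle, had 6 nt, with a TE of 0.00329 at a coverage of 107 and a half-life of 8.21 at a coverage of 60. Apba3 had 6 nt as well, with a coverage of 656 and a TE of 0.00115. In the polysome table, the most covered member with none of the 12 hexamers was an unnamed isoform at chr6:113448448-113460099 with a 3′ UTR of 19 nt, shown whole because none of the 12 is in it.
Unnamed (chr6:113448448-113460099, plus strand): aagccgatacagtattcct
Its coverage was 1607 with a TE of 0.000429, and 901 with a half-life of 10.8. These values differ widely among isoforms that share only the length of their 3′ UTR. The distance of each of these 3′ ends from the annotated end is not given here. Whether the annotated 3′ UTRs are as short was therefore not tested.

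Other features of the 3′ UTR followed its length. A further stop codon in frame with the annotated one was present in 49.0% (43.0 to 55.1) and 50.5% (44.9 to 56.1) of members, against 87.1% and 89.3% of longer isoforms, so that about as many members lacked a second stop before the poly(A) tail as had one. An AUUUA pentamer, a motif of AU-rich decay elements, was found in 9.65% and 7.26% of members and in 17.2% and 20.0% of longer isoforms. Median GC content was 46.1% and 44.7% in members against 51.7% and 49.3%. The genes were compact: the median genomic distance between both ends was 4232 and 4368 nt, against 7178 and 7973 nt.

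The leaders of these isoforms were more often of the TOP type than those of longer isoforms, with intervals that do not overlap. Such a start, here C followed by 4 pyrimidines, was found in 44 of 255 polysome members with a leader (17.3%, 13.1 to 22.4) and 58 of 299 decay members (19.4%, 15.3 to 24.3), against 6.76% (5.19 to 8.76) and 6.17% (4.86 to 7.80) of longer isoforms. The difference was 10.5 percentage points (5.89 to 15.8) and 13.2 points (8.84 to 18.3). TOP starts were most frequent at 21 to 40 nt, in 28.8% (18.3 to 42.3) and 34.3% (24.2 to 46.0), and least at 61 to 80 nt, in 7.27% and 9.57%, a share close to that of the longer isoforms. Where the hexamer lay 10 to 19 nt after the stop codon, 12 of 36 and 20 of 53 members had a TOP start, and at 40 nt or more 8 of 82 and 8 of 87. C as the first base was correspondingly more frequent, at 22.4% and 24.7% against 13.9% and 11.7%, and A was less so, at 55.3% and 52.5% against 65.4% and 66.9%.

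**Figure D2:**
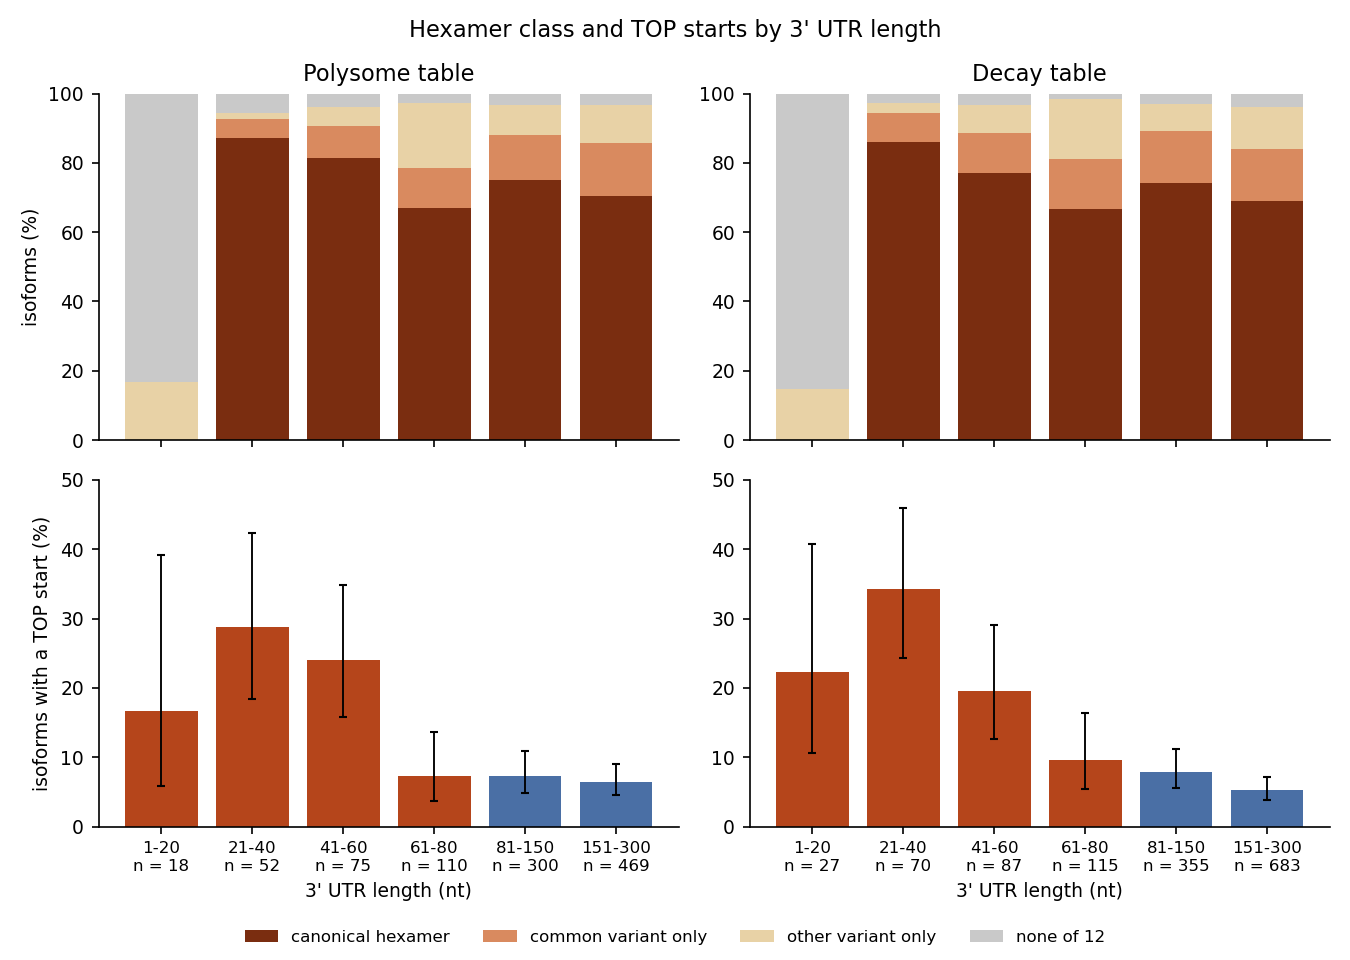
Upper panels: share of isoforms (%) by 3′ UTR length whose 3′ UTR holds AAUAAA (canonical), only AUUAAA (common variant), only another of 10 variants, or none of the 12. Lower panels: share (%) with a TOP start, with 95% Wilson intervals; n is the number of isoforms with a leader, members are orange and longer isoforms blue. The class of 1 to 20 nt holds no AAUAAA or AUUAAA, and TOP starts peak at 21 to 40 nt, at 28.8% and 34.3%.

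Leader length and upstream AUGs were close to those of longer isoforms, with intervals of the differences that include 0. Median 5′ UTR length was 94 nt (77 to 115) and 83 nt (68 to 105) in members, against 95 nt (87 to 103) and 93 nt in the decay table. An upstream AUG was present in 34.5% (28.9 to 40.5) and 36.5% (31.2 to 42.1) of members and in 34.1% and 31.0% of longer isoforms, with differences of 0.44 points (-6.09 to 7.29) and 5.43 points (-0.56 to 11.7). Leaders of over 200 nt made up 23.1% and 21.1% of members and 22.6% and 22.1% of longer isoforms. Whether the deposited 5′ UTR sequences leave out introns is not stated and was not tested. Leader lengths, upstream AUGs and the leader classes below may therefore include intron sequence.

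Among 8 gene groups set by symbol, those of the cytosolic ribosome and of mitochondrial respiration held the most named members. Over all coverages, 131 of 1096 genes named in the polysome table and 136 of 1118 in the decay table had a member. The group counts that follow are over used isoforms only, so they are not on the same basis. Of 21 cytosolic ribosomal protein genes with a used annotated isoform in the polysome table, 17 had a member and 5 a longer isoform of 81 to 300 nt; in the decay table it was 20 and 7 of 27. Of their member isoforms, 16 of 20 and 20 of 28 had a TOP start, and 16 and 23 held AAUAAA or AUUAAA. Their TE ran from 0.000376 to 0.00212 with a median of 0.00119, and their half-life from 8.87 to 18.3 with a median of 12.9. Fau, which encodes ribosomal protein S30 fused to a ubiquitin-like domain, had a TE of 0.00212 and a half-life of 15.4. Rpl36al, whose deposited leader of 902 nt in the polysome table may hold intron sequence, had a TE of 0.000548. For oxidative phosphorylation, 10 of 28 genes in the polysome table and 8 of 28 in the decay table had a member, 18 and 21 a longer isoform, and no member had a TOP start. Their TE had a median of 0.00151, from 0.000992 in Ndufs8 to 0.00372 in Ndufa5, both subunits of complex I, and their half-life a median of 12.1. The mitochondrial ribosome was represented by 4 genes in each table, the proteasome by 3 and 5, translation factors by 3 and 3, sarcomere genes by Actn2, Tnnt1 and Tnnt2, and glycolysis by Eno3; 0 of 4 and 0 of 6 genes of the Sm and LSm proteins, which bind spliceosomal RNAs, had a member, numbers too small to read. These groups were defined by gene symbol with earlier results of these data known, over the named part of the isoforms, and no test was made on them.

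The members' median coverage was above that of longer isoforms, within the intervals, and highest in TOP mRNAs. Median coverage was 173 (127 to 214) in the polysome table and 213 (152 to 263) in the decay table, against 131 (114 to 149) and 170 (148 to 200), which is a log2 difference of 0.40 (-0.08 to 0.77) and 0.33 (-0.21 to 0.69). Members with a TOP start had medians of 667.5 and 687, and members without one 130 and 183; longer isoforms without a TOP start had 130 and 169.5. TOP members carried 44.2% and 49.3% of all member coverage, while TOP isoforms carried 6.02% and 7.24% of that of the longer isoforms. The 10 most covered loci held 42.7% and 37.3% of member coverage. Rplp2, an acidic protein of the ribosomal stalk, had a coverage of 12873 and 18216, and Rpsa, a small subunit protein, 8829 and 17576. Eif3k, a subunit of initiation factor eIF3, reached 8586 in the decay table, and Eno3, the muscle enolase of glycolysis, 6998 in the polysome table. The highest polysome coverage, 14873, belonged to an unnamed isoform at chr10:80644332-80649331 (minus strand) with a 3′ UTR of 74 nt, no TOP start and a TE of 0.00223. Other unnamed isoforms, at chr15:76788285-76790512, chr7:12656245-12660612 and chr9:61820566-61821821, had polysome coverages of 7485, 6118 and 5810.

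The median TE was slightly higher in members, with an interval of the difference that reaches 0, and was highest in members of up to 60 nt. The median was 0.00105 (0.000950 to 0.00114) over 255 members and 0.000944 (0.000909 to 0.000987) over 769 longer isoforms, a log2 difference of 0.15 (-0.00 to 0.28). The quartiles, 0.000709 to 0.00146 and 0.000676 to 0.00129, overlapped almost fully. By length the medians were 0.00121 at 1 to 20 nt (n = 18), 0.00113 at 21 to 40 nt (n = 52), 0.00114 at 41 to 60 nt (n = 75) and 0.000919 at 61 to 80 nt (n = 110), then 0.00102 at 81 to 150 nt and 0.000911 above 150 nt. Members of 1 to 60 nt stood 0.28 (0.12 to 0.42) above the longer isoforms on the log2 scale. Set against longer isoforms of 81 to 150 nt alone, all members differed by 0.04 (-0.13 to 0.21). Spearman's rho between 3′ UTR length and TE was -0.20 across the 255 members, which share libraries and differ in coverage.

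**Figure D3:**
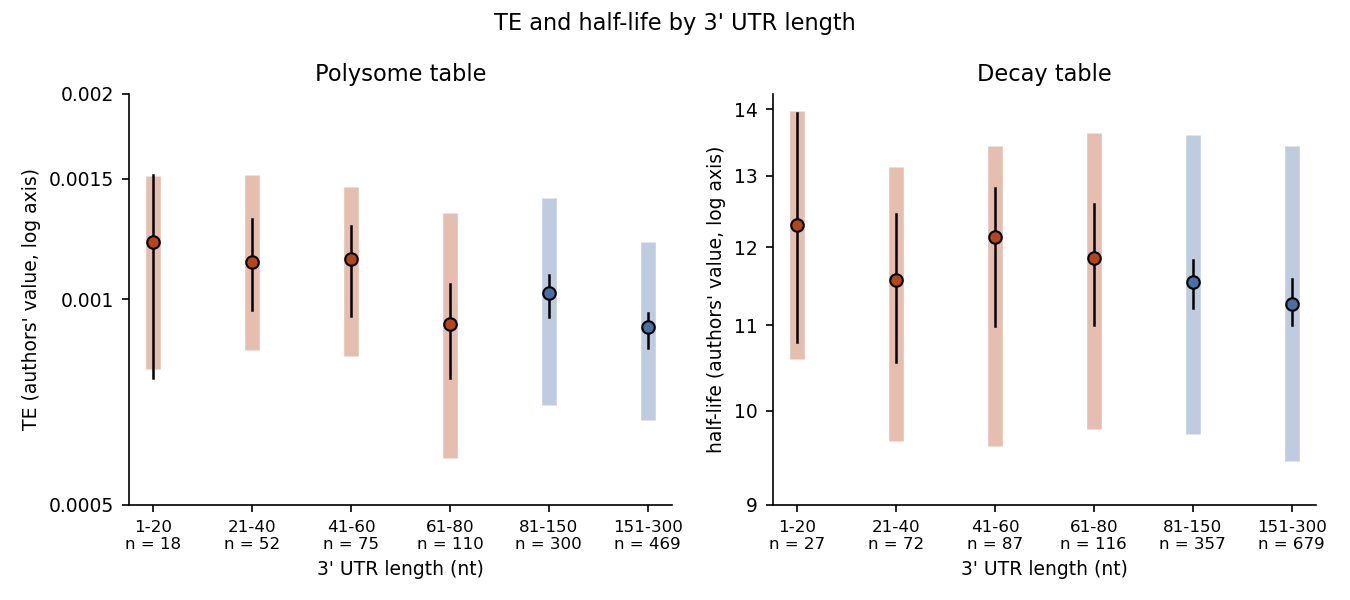
Median TE (left) and median half-life (right), as the authors give them, on log axes against 3′ UTR length (nt) for isoforms with coverage of at least 30 and a value above 0. Points are medians, black lines their 95% order-statistic intervals and shaded bars the quartiles; members are orange and longer isoforms blue. TE is 0.00113 to 0.00121 in the 3 classes up to 60 nt and 0.000919 at 61 to 80 nt, and the half-life medians lie between 11.3 and 12.3.

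The members' median TE was above that of longer isoforms in most leader classes. Without an upstream AUG the median was 0.00122 (0.00109 to 0.00128, n = 167) in members and 0.00102 (0.000987 to 0.00108, n = 507) in longer isoforms. With upstream AUGs that all met a stop inside the leader it was 0.000806 against 0.000759, and with one that met no stop there 0.000819 against 0.000833. By length, leaders of up to 50 nt gave 0.00126 (0.00105 to 0.00151) against 0.00106 (0.000987 to 0.00115) and those of 51 to 100 nt 0.00109 (0.000892 to 0.00126) against 0.00102 (0.000969 to 0.00112). Leaders of over 100 and up to 200 nt gave 0.00111 (0.00102 to 0.00133) against 0.000916 (0.000835 to 0.000958), while those over 200 nt gave 0.000668 (0.000548 to 0.000869) against 0.000770 (0.000689 to 0.000842), the one length class in which members had the lower median. TOP members had a median of 0.00105 (n = 44), equal to that of members without a TOP start, and TOP isoforms with longer 3′ UTRs 0.000808 (n = 52). Spearman's rho between leader length and TE was -0.43 in members and -0.24 in longer isoforms; the difference between these was not tested. Members with AAUAAA or AUUAAA had a median TE of 0.00109, and members with neither 0.000826 (0.000635 to 0.00115, n = 53). The latter value pools unlike length classes. Members with neither had medians of 0.00121 at 1 to 20 nt, 0.00183 at 21 to 40 nt, 0.000821 at 41 to 60 nt and 0.000653 at 61 to 80 nt. In longer isoforms the medians with and without a hexamer were 0.000944 and 0.000945. The gap from stop codon to hexamer showed no order with TE: the medians were 0.00111 at 0 to 9 nt (n = 12), 0.00104 at 10 to 19 nt, 0.00118 at 20 to 39 nt and 0.000963 at 40 nt or more.

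The half-life medians lay close together, and the interval of their difference includes 0. The median was 12.0 (11.3 to 12.3) over 302 members and 11.4 (11.2 to 11.6) over 1036 longer isoforms, a log2 difference of 0.07 (-0.02 to 0.12), with quartiles of 9.74 to 13.5 and 9.60 to 13.5. The last RNA was collected at 12 h. If half-lives are in hours, both medians lie close to that time and the upper quartiles beyond it. TOP members had a median of 12.7 (n = 58) against 12.4 in TOP isoforms with longer 3′ UTRs, and without a TOP start the medians were 11.5 and 11.3, a log2 difference of 0.02. Members with neither hexamer had a median of 12.6 (11.2 to 13.5, n = 63) and those with one 11.7. No length class stood apart: the medians were 12.3, 11.6, 12.1 and 11.9 from the shortest to the longest class. Half-life was longer at higher coverage across members (Spearman's rho 0.33, n = 298), and coverage here is pooled over all times after actinomycin D, so abundance and stability are not separate measures in this table; the part of coverage in these differences was not tested. Among the 144 members used in both tables, TE and half-life had a Spearman's rho of 0.08.

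**Figure D4:**
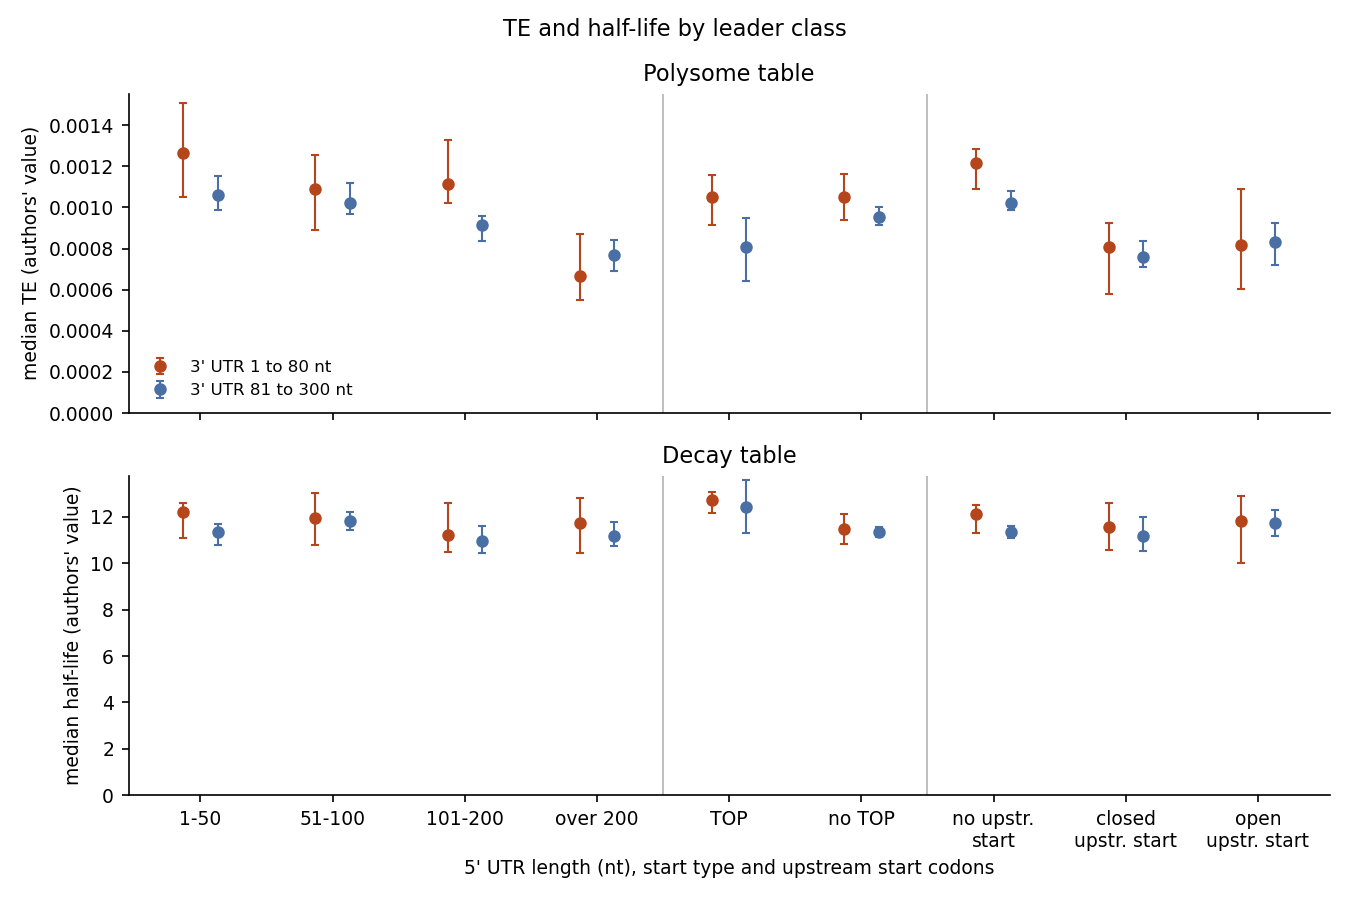
Median TE (upper) and median half-life (lower), the authors' values, for members (orange) and longer isoforms (blue) by 5′ UTR length, by TOP start and by upstream start codons (none, all closed inside the leader, or not closed there); bars are 95% order-statistic intervals. Member TE falls to 0.000668 in leaders over 200 nt and to 0.000806 with closed upstream AUGs, and half-life medians stay between 10.98 and 12.7 in all classes.

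At the extremes, members with a coverage of at least 100 ranged widely in both values. After the 1 nt isoform, the highest TE was 0.00357 in an unnamed isoform at chr7:44506575-44512074, whose 28 nt 3′ UTR has its hexamer 6 nt after the stop codon, and 0.00329 in Tnnt2. The lowest were 0.000232 in an unnamed isoform at chr17:35220068-35235298, 0.000259 in Bag6, which encodes a chaperone of membrane protein sorting, 0.000296 in an unnamed isoform at chr5:143302245-143314995 and 0.000354 in Actn2, the α-actinin of the muscle Z-disc. The longest half-life was 28.2 in Cdc34, a ubiquitin-conjugating enzyme gene, followed by 26.1 in an unnamed isoform on chromosome 18. Next came 21.7 in an isoform of Psmb3, a proteasome subunit gene, at a coverage of 119. If half-lives are in hours, these longest values lie beyond the last collection at 12 h. A better covered Psmb3 member with the same 3′ end had a half-life of 13.2 at a coverage of 1160. The shortest were 5.67 in an unnamed isoform at chr7:45172344-45175648, 6.67 in one at chr1:74632912-74640540, 7.03 in Tcirg1, a V-ATPase subunit gene, and 7.05 in Dmap1. Members at the bound of the rule had like values to those just outside it: at 79 and 80 nt, 12 isoforms had a median TE of 0.000810 and 8 a median half-life of 10.3, and at 81 and 82 nt, 16 isoforms in each table had 0.000912 and 10.98.

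Some loci made both a minimal and a longer 3′ UTR from the same 5′ end, the longer 3′ UTR starting with the letters of the shorter one. The leader is then shared, and the stop codon was taken to be shared from these letters alone. Splicing is not given in the tables. In Igf2, among the half-life loci, the 3′ ends (142207530 and 142204506) lay further apart than the 3′ UTR lengths (23 and 1875 nt) differ. In 12 loci with TE the longer annotated isoform (median 359 nt against 48.5 nt) was lower in 10, with a median log2 of longer over shorter of -0.41 (-1.15 to -0.20). For half-life it was lower in 14 of 19 loci, with a median of -0.25 (-1.0 to 0.00). As a measure of spread, members with the same 3′ end and 5′ ends at most 50 nt apart differed by a median of 0.26 in log2 TE (23 loci) and 0.41 in log2 half-life (25 loci), whatever the direction, with the largest differences at 1.40 and 1.51. Single pairs therefore often differed by no more than near-identical isoforms did. In 10 loci the same pair was measured in both assays: the longer isoform was lower in both values in 6, in TE only in 3 and in half-life only in 1.

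Rpl13a gave the best covered pair. Its 23 nt isoform had a TE of 0.00180 (coverage 1782) and its 381 nt isoform 0.000771 (coverage 504), and the half-lives were 14.6 and 12.9. In Rpsa, 65 nt gave a TE of 0.000457 and 135 nt 0.000284. The half-life went the other way, from 12.9 to 23.7, at unequal coverages of 17576 and 291. Cdc34 showed little difference in TE, 0.000541 with 36 nt and 0.000471 with 337 nt. Its half-lives differed more, 28.2 and 11.8, at coverages of 397 and 402. If in hours, this 28.2 and the 23.7 of Rpsa lie beyond the last collection at 12 h. Slc39a7, a zinc transporter gene of the secretory pathway, had 0.000806 with 71 nt and 0.000675 with 523 nt, and half-lives of 14.6 and 12.2. In Lin37, a subunit gene of the DREAM repressor complex, TE was 0.00110 with 42 nt and 0.000923 with 81 nt. The half-lives were 5.09 and 5.83, at low coverages of 82 and 71. An unnamed isoform at chr7:44711915-44726842 (plus strand) had a TE of 0.00161 with 35 nt and 0.000726 with 817 nt, and half-lives of 14.6 and 10.2. The largest ratio in TE was at chr4:152410320-152416933 (plus strand), where 52 nt gave 0.00104 (coverage 343) and 1644 nt gave 0.000145 (coverage 72). In Cct5, which encodes a chaperonin subunit, TE was the higher with the longer 3′ UTR. It was 0.000671 with 45 nt (coverage 66) and 0.000811 with 113 nt (coverage 169). The half-life was the lower, 16.8 and 8.39, at coverages of 145 and 114.

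**Figure D5:**
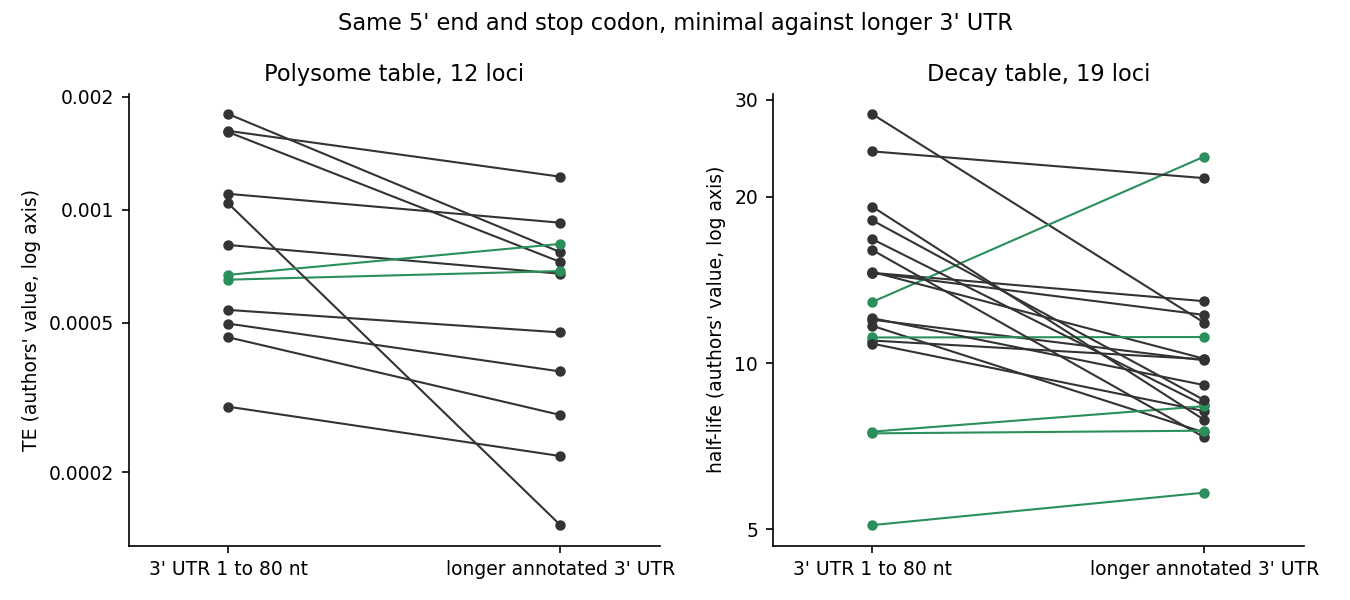
TE (left, 12 loci) and half-life (right, 19 loci), the authors' values on log axes, of a member and of a longer annotated isoform. Both have the same 5′ end, and the longer 3′ UTR starts with the letters of the shorter one, from which a shared stop codon was taken. Each line is 1 locus, dark where the longer isoform is lower and green where it is higher; TE is lower in 10 of 12 and half-life in 14 of 19.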

How the data were processed

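Per the submitters' processing notes, the tools were STAR 2.5.3a, UMI-tools 0.5.4, cutadapt 1.16 and bcl2fastq 2.20.0, with the build GRCm39. The clustering of ends and the formulas of TE and half-life are not given here. The deposited coverage is a whole-number count per isoform, pooled over 6 polysome or 12 decay libraries, so depth per library is unknown; the lowest counts listed are 11 and 21. The deposited TE and half-life are the authors' values on scales not stated, used as they stand; values of 0 or below (5 and 1 members) and missing values (6 and 3) were left out.

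Members, gene lists and comparisons were chosen with earlier results of these data known. Hexamers, upstream AUGs, TOP starts and in-frame stops were found in the deposited UTR sequences; functions were checked on simulated data. The last AAUAAA or AUUAAA was used. Isoforms were joined into loci by a shared end, or by overlap with the same 20 nt beside the start or stop codon. Names came from RefSeq promoter windows (250 nt before to 50 nt after the start, GRCm38.p6, an incomplete table), matched by sequence on the same chromosome and strand. The match of 20 nt in place of 30, and its extension to the whole locus where 1 gene matched, were chosen after the tables were seen. Isoforms were named as the 8 most covered loci, the 4 highest and 4 lowest values at a coverage of at least 100, the 5 shortest 3′ UTRs, the 3 smallest gaps from stop codon to hexamer, the 6 best covered pairs, and members of 8 gene groups; starts that could complete a hexamer, members without any hexamer, Cct5 and the largest TE ratio were added after their values were seen. Differences of shares and log2 ratios of medians carry intervals combined from those of both groups. Python 3.11.15, pandas 2.3.3, numpy 2.4.6, scipy 1.17.1 and matplotlib 3.10.9 were used.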

Additional observations from a re-analysis of the deposited data

How the results depend on the processing

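No paired analysis was possible because the tables hold no value for a single mouse or library. Over 18 results, 98 recomputed values were compared with the main ones: 89 stayed within the main value's 95% interval, 9 moved outside it, and none of the signed results whose interval excludes 0 changed sign. The share of members with a hexamer was 70.7% (polysome) and 68.3% (decay) with AAUAAA only, 90.7% and 90.1% with all 12 hexamers, and 85.5% and 86.96% for members of 21 to 80 nt, a setting added after seeing the data. The excess of TOP starts over longer isoforms was 18.3 points in the polysome table at a coverage of at least 100, and 18.1 and 19.4 points for members of 1 to 60 nt. The interval of the TE difference included 0 with the main settings, at a coverage of at least 15 (0.07), without TOP isoforms (0.14), for members of 21 to 80 nt (0.13) and against 81 to 150 nt (0.04), and excluded it for 1 isoform per locus (0.18), a coverage of at least 100 (0.18), members of 1 to 60 nt (0.28) and leaders of at most 100 nt (0.24). That of the half-life difference (0.07) excluded 0 at a coverage of at least 100 (0.06), and that of upstream AUGs in the decay table with 1 isoform per locus (7.01 points). Half-life without TOP isoforms differed by 0.02. Within a locus, the median log2 TE ratio ran from -0.47 to -0.41 and that of half-life from -0.32 to -0.25 over coverage minimums of 15 to 100 and other partner classes. Low counts limit single isoforms: 137 polysome and 49 decay members had a coverage under 30.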
